A study of Homo sapiens with 62 samples.

Results

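The genes described here were 10 transcription factors of B cell activation and of the step to the antibody-secreting plasmablast: IRF4, BATF, BATF3, PRDM1, MYC, RUNX3, MEF2C, BHLHE40, JUNB and BCL6. They were found by gene symbol among the 55040 annotated genes of each deposited expression table, and each symbol matched exactly 1 gene. Their levels were given for every library and compared between the 2 sets of libraries of the study.

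All 20 libraries came from GM12878, a human B-lymphoblastoid cell line immortalised with Epstein-Barr virus. Pools of 10 cells were divided into 10 parts, and each part (a split) was amplified with the SMARTer kit, tagged with Nextera, sequenced on an Illumina HiSeq instrument and treated like a single cell, which the series did to measure technical variation. The numbered set held splits 1 to 10, and the unnumbered set held 10 splits known by library number (232, 233 and 246 to 253). The titles of 9 of the 10 unnumbered splits, all but 247, say that a later record replaces them, and their notes warn that their metadata may be out of date, whereas 0 of the numbered titles carry such a mark. The other 42 of the 62 samples were not analysed here. Both sets carried the same genotype and received no treatment named in the labels. A single cell line limits both sets as a model of B cells, and the labels do not say how many pools lay behind each set.

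A B cell that meets antigen, or that carries the latent genes of Epstein-Barr virus, enters an activated and proliferating state. The viral protein EBNA2 is known to induce MYC, RUNX3 and BATF. IRF4 binds DNA together with BATF and JUN family partners, and at high levels it favours plasma cell fate through PRDM1. PRDM1, also called Blimp-1, represses MYC, BCL6 and genes of B cell identity, whereas BCL6 holds germinal centre B cells back from that fate and represses PRDM1.

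The sequences just upstream of IRF4, BATF and PRDM1 are shown because these were the members whose levels differed between the sets. Each is the 250 bases before an annotated start, 5′ to 3′, on the plus strand of GRCh38.p14, from RefSeq. IRF4 was read at chr6:391502-391751 and BATF at chr14:75522219-75522468. PRDM1 has 2 such starts here, at chr6:106086086-106086335 and chr6:106098691-106098940. Capitals mark matches on either strand to the AP-1 motif TGANTCA, the GC box GGGCGG and the TATA motif TATAAA.
IRF4: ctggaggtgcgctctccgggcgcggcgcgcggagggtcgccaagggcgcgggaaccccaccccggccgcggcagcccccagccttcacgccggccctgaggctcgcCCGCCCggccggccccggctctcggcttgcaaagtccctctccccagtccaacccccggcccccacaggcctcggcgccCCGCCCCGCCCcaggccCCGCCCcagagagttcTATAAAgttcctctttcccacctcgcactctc
BATF: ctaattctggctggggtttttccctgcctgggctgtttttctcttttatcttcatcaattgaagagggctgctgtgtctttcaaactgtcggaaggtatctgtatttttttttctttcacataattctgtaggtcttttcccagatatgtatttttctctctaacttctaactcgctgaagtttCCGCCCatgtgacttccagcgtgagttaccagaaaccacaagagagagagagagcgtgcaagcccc
PRDM1 first start: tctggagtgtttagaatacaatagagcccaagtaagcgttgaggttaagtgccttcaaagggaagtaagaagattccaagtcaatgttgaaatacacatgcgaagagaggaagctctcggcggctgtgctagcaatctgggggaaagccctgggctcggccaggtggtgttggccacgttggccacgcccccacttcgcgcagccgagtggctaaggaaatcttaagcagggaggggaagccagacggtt
PRDM1 second start: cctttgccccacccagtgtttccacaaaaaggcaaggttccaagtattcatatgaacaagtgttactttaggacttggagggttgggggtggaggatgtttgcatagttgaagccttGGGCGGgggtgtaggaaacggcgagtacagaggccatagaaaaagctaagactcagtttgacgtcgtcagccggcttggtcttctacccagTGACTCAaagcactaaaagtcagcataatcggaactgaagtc

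In windows of 300 bases (250 before the start and 50 after it) the AP-1 motif occurred in 7.71% of all 35116 RefSeq promoters, the GC box in 45.0% and TATAAA in 11.5%. IRF4 carried 4 GC boxes, of which a neighbouring pair shares a base, and a TATAAA that begins 32 bases before the start. BATF carried 1 GC box. The first PRDM1 start matched none of the motifs, and the second carried 1 GC box and a TGANTCA match that begins 42 bases before the start. The motifs overlapped no other motif in these windows. Windows were found for 8 of the 10 genes, 17 in all, and the AP-1 motif lay in 3 of them, the GC box in 6 and TATAAA in 2. BATF3 and MYC are named only.

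Levels are FPKM, fragments per kilobase of transcript and per megafragment (M) mapped, so they can be compared between genes per length. Estimated depth was 11.7 to 20.6 M fragments in the numbered splits. It was 23.2 to 38.7 M in 8 unnumbered splits, 7.78 M in split 252 and 0.128 M in split 247. The numbered splits held 3771 to 7671 genes at 1 FPKM or more and the unnumbered splits 2942 to 4792. Mitochondrial genes took 3.37 to 6.32% of the summed FPKM in numbered splits and 6.18 to 8.17% in unnumbered splits. No label names a batch, but the laboratory experiment numbers fall into 4 stretches of consecutive numbers, called runs here: numbered splits 5 to 8 (run a), the other 6 numbered splits (run b), unnumbered splits 232 and 233 (run c) and the other 8 unnumbered splits (run d). The numbers of b, c and d lie close together, with other samples of the study in the gaps, and those of run a lie apart. Each run held 1 set only, so no comparison within a run was possible and any batch that follows these numbers and the set cannot be told apart. An exact 0 does not show that a gene was absent from the cells, and it may be a failed estimate. Of 16 genes that every cell uses, 8 were listed at 0 in at least 1 library. Among them POLR2A and TBP had low medians over all 20 libraries (0.174 and 0.0313 FPKM). HPRT1 was listed at 0 in 2 libraries with a median of 153 FPKM over all 20. Whether such a 0 was a true count of 0 or a failed estimate is not known from the files.

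The cell type named in the labels was checked by its markers. MS4A1, CD74 and HLA-DRA were above 100 FPKM in all 20 libraries, whereas none of 5 erythroid and platelet markers reached 1 FPKM in any split. Of 7 T and NK cell markers, CD3D, CD3G, CD8A and GNLY never reached 1 FPKM, but CD2 did in 6 numbered and 1 unnumbered splits (highest 53.4 FPKM in numbered and 5.61 FPKM in unnumbered splits), NKG7 in 5 numbered and 1 unnumbered (highest 92.2 FPKM in numbered and 243 FPKM in unnumbered splits) and CD3E in 3 numbered and 0 unnumbered (highest 29.9 FPKM). Of 7 myeloid markers, CD14, LYZ, FCN1 and S100A8 never reached 1 FPKM, but CSF1R did in 10 numbered and 8 unnumbered splits (highest 53.8 FPKM in numbered and 1.65 FPKM in unnumbered splits). S100A9 and ITGAM reached 1 FPKM in 1 numbered split each and in 0 unnumbered splits. The summed FPKM of the T and NK cell markers was 3.18 to 99.2 in the numbered and 0 to 243 in the unnumbered splits, and that of the myeloid markers was 1.66 to 53.8 in the numbered and 0.920 to 1.65 in the unnumbered splits. PAX5, a B lineage factor, was low, with medians of 1.05 FPKM in the numbered and 1.75 FPKM in the unnumbered splits. The summed FPKM of 10 B cell markers was 7586 to 13170.5 in the numbered and 3855 to 6368 in the unnumbered splits. The FPKM of 4 measured plasma cell markers (SDC1, TNFRSF17, IGJ and XBP1) was summed. The sum was 3.13 to 265 in the numbered and 447 to 1386 in the unnumbered splits, but the 4 did not differ alike. Medians in numbered and unnumbered splits were 0.0975 and 459 FPKM for IGJ and 7.65 and 154 FPKM for TNFRSF17. For XBP1 they were 1.77 and 1.89 FPKM, and for SDC1 they were 0 FPKM in both sets. The part of these markers in the results below was not tested.

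Of the 10 members, 8 had a mean of 1 FPKM or more over the 20 libraries and were tested with limma on log2(FPKM + 1), in a fit over all 10506 genes with such a mean. Differences are numbered minus unnumbered on that scale, on which the change of low genes is understated. BATF was higher in the numbered splits, and IRF4 and PRDM1 were lower, at a Benjamini-Hochberg adjusted p below 0.05 over all 10506 genes. Of all genes tested, 3.93% were called higher in the numbered splits and 1.38% lower, 5.31% in all. BATF reached the mean needed for testing through the numbered set alone. PRDM1 had a mean of 1.55 FPKM in the numbered set, with 99.9% of its summed FPKM there from split 7. Their count is therefore no support for the members as a group. The median difference was 0.62 over the 8 tested members and 0.35 over all genes tested. The p-values reflect how much splits of a set differ, which may be purely technical, and say nothing of how cultures or single cells vary. Since a split holds RNA of several cells, fewer cells of a type and less RNA per cell cannot be told apart.

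**Figure D1:**
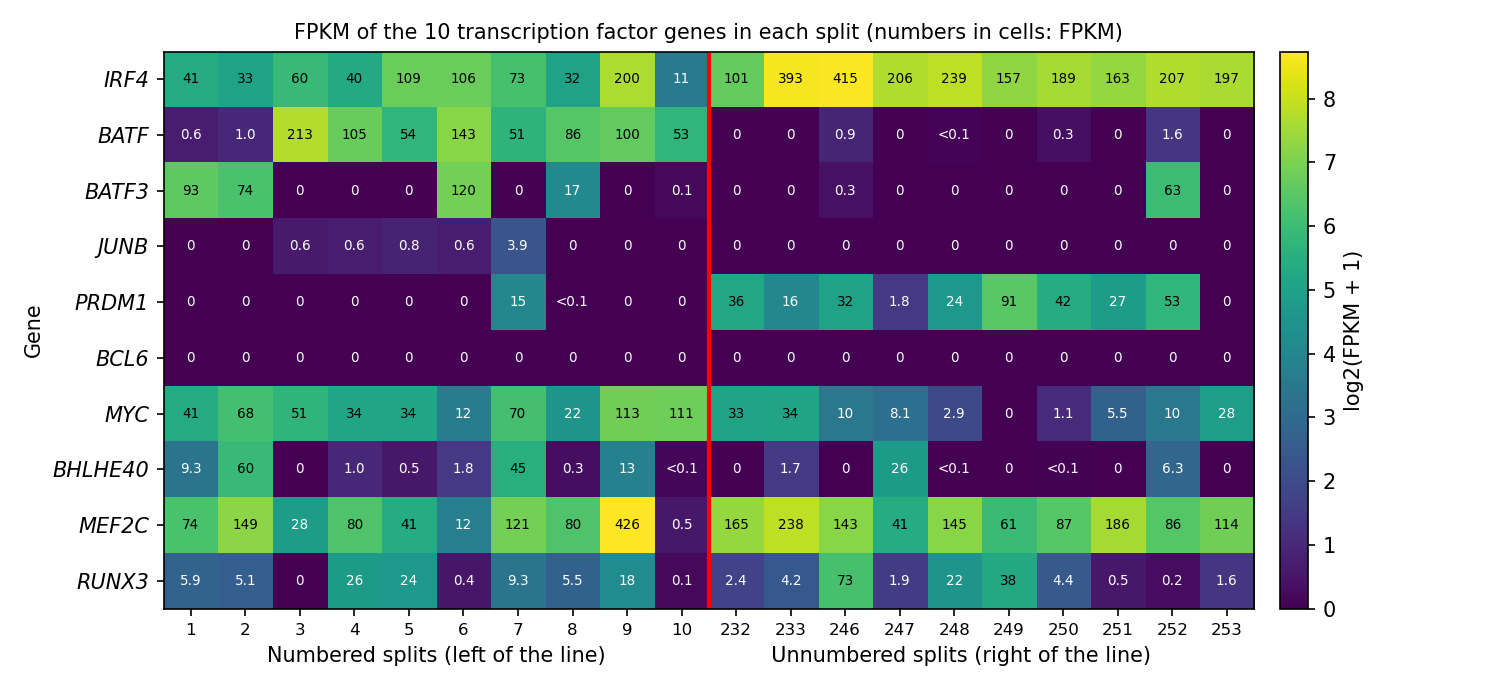
Heat map of log2(FPKM + 1) for the 10 genes (rows) in each of the 20 splits (columns), with the FPKM in each cell and the 10 numbered splits left of the 10 unnumbered ones. BATF is bright (high) in 8 numbered splits, PRDM1 in most unnumbered splits, IRF4 is present in all 20, and BCL6 is listed at 0 in all 20.

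IRF4 (ENSG00000137265.10, chromosome 6, 391739 to 411447) encodes the interferon regulatory factor that drives B cell activation and plasma cell fate. Coordinates of genes are those of the deposited tables, counted from 1, whose build the sources used here do not give. They cannot be set against the GRCh38.p14 positions of the sequences above. BATF, for example, starts at 75988768 in these coordinates, while its upstream sequence was read at chr14:75522219-75522468. IRF4 was at 40.96, 32.58, 59.9, 39.55, 108.8, 105.81, 72.81, 32.01, 200.4 and 11.27 FPKM in numbered splits 1 to 10. In the unnumbered splits it was at 101.49 (232), 392.56 (233), 415.11 (246), 206.44 (247), 238.88 (248), 157.01 (249), 189.03 (250), 163.32 (251), 206.54 (252) and 197.32 FPKM (253). The gene was present in every split, and the sets overlapped: 5 unnumbered splits lay above numbered split 9, the highest of its set. Its mean was 70.4 ± 55.7 FPKM in the numbered and 227 ± 100 FPKM in the unnumbered splits (SD, n = 10 each). IRF4 was lower in the numbered splits by limma (difference -1.94, SE 0.50, 95% interval -2.98 to -0.90, adjusted p = 0.0193), a ratio of means of 0.310.

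Among all genes tested, IRF4 stood at the percentile 82.8 of levels in numbered splits and 93.2 in unnumbered splits. Its coefficient of variation was 0.792 among numbered splits, where genes of like level had a median of 1.06, and 0.443 among unnumbered splits, where such genes had 0.771. IRF4 therefore varied less between splits than the middle gene of its level in both sets. It was the highest of the 10 members in 1 numbered split and in 8 unnumbered splits. The deposited 95% interval reached a median of 3.94% of the value in numbered and 1.16% in unnumbered splits, an interval that treats amplified copies as independent fragments. Runs a and b had medians of 89.3 and 40.3 FPKM, and runs c and d had medians of 247 and 202 FPKM. Without run a the IRF4 difference was -2.22, adjusted p = 0.0105 (limma).

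BATF (ENSG00000156127.6, chromosome 14, 75988768 to 76013358) encodes the basic leucine zipper partner with which IRF4 binds composite DNA elements. It was at 0.58, 1.01, 213.21, 104.8, 53.53, 143.0, 50.57, 85.73, 99.65 and 53.05 FPKM in numbered splits 1 to 10. It was listed at 0 in unnumbered splits 232, 233, 247, 249, 251 and 253 and at 0.89 (246), 0.06 (248), 0.28 (250) and 1.59 FPKM (252). Numbered splits 1 and 2 were low and the other 8 were above 50 FPKM, all of them higher than any unnumbered split, while splits 1 and 2 lay within the unnumbered range. BATF was higher in the numbered splits by limma (difference 5.09, SE 0.88, 95% interval 3.28 to 6.89, adjusted p = 0.000314). Its adjusted p by an exact rank-sum permutation test was 0.00237. BATF reached 1 FPKM in 9 numbered splits and 1 unnumbered split.

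If the zeros of BATF are true counts of 0, depth sets how high the gene could have been. In 5 of the 6 unnumbered splits at 0, a level of 3 fragments (the 95% upper limit for a count of 0) equals 0.0791 to 0.0884 FPKM. In split 247, at 0.128 M fragments, the same limit is 24 FPKM, so that split does not bear on BATF. These limits and those below are 95% limits and use a transcript length from GENCODE 29. They cover counting error only and do not hold where a 0 is a failed estimate. Without split 247 the BATF difference was 5.06, adjusted p = 0.000635 (limma).

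BATF3 (ENSG00000123685.4, chromosome 1, 212859760 to 212873327) encodes a close relative of BATF. It was at 93.11, 74.04, 119.75 and 17.35 FPKM in numbered splits 1, 2, 6 and 8, at 0.13 FPKM in split 10, and at 0 in the other 5 numbered splits. It was at 63.04 FPKM in unnumbered split 252, at 0.32 FPKM in split 246, and at 0 in the other 8 unnumbered splits. The sets overlapped and BATF3 did not pass the test (difference 1.77, SE 1.1, limma adjusted p = 0.454). The 2 numbered splits in which BATF was near 1 FPKM both held BATF3, and split 6 held both genes above 100 FPKM.

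JUNB (ENSG00000171223.4, chromosome 19, 12902310 to 12904124), an AP-1 subunit that pairs with BATF, was low in both sets. It was at 3.95 FPKM in numbered split 7, at 0.56, 0.57, 0.85 and 0.58 FPKM in splits 3 to 6, and listed at 0 in the other 5 numbered splits and in all 10 unnumbered splits. A true count of 0 allows up to 0.212 FPKM in the unnumbered splits other than 247, and up to 12.9 FPKM in split 247. JUNB had too low a mean (0.325 FPKM) to be tested. In a limma fit without that filter its difference was 0.51, SE 0.23, adjusted p = 0.499.

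**Figure D2:**
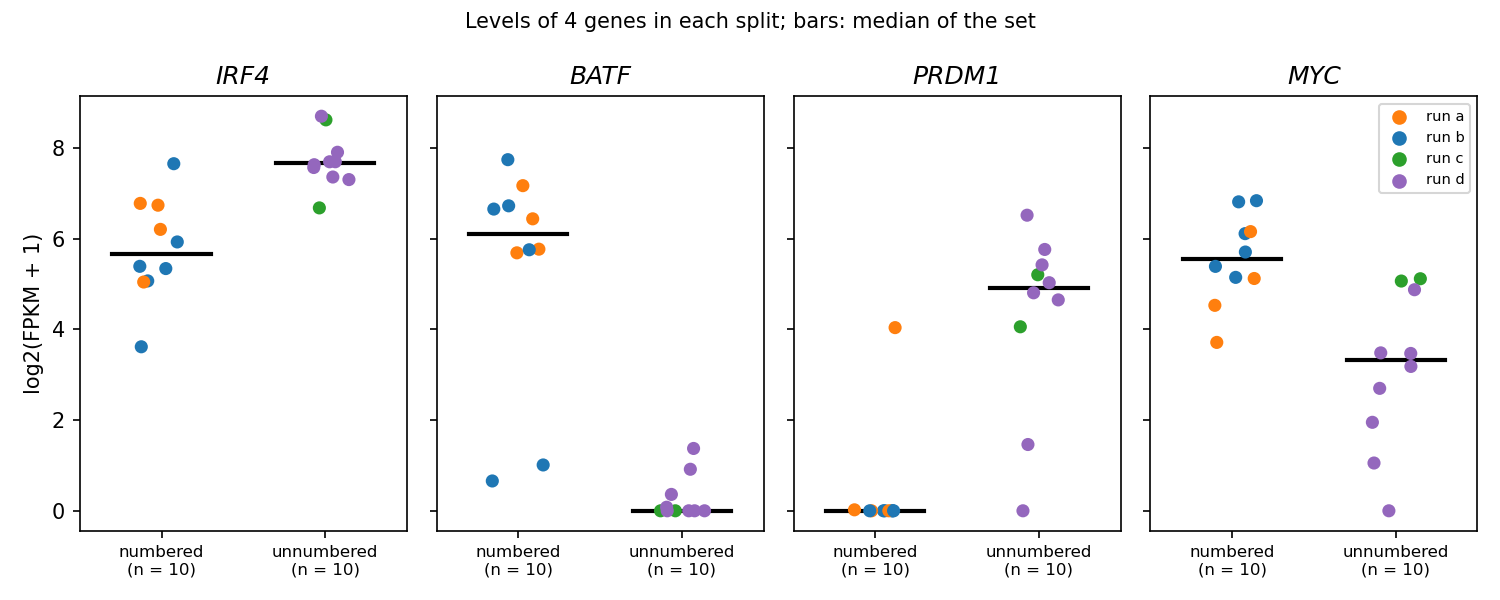
Log2(FPKM + 1) of IRF4, BATF, PRDM1 and MYC in each split, numbered left and unnumbered right in each panel, coloured by run, with a bar at the median of each set. BATF medians were 69.6 FPKM in numbered and 0 FPKM in unnumbered splits, and PRDM1 medians were 0 FPKM in numbered and 29.3 FPKM in unnumbered splits.

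Other bZIP and IRF family genes, with the IRF partners SPI1 and SPIB, were read beside these members. Of 19 such genes, 9 were tested, 1 was higher in the numbered splits and none was lower, with a median difference of 0.72, beside the 3.93% higher and 1.38% lower of all genes tested. IRF1, an interferon-induced activator, had a median of 50.6 FPKM (0 to 85.6) in the numbered splits and 0 FPKM (0 to 14.5) in the unnumbered splits (difference 3.84, SE 0.97, limma adjusted p = 0.0153). Its call was lost without run a (adjusted p = 0.0908). IRF2, which represses interferon targets, and BACH1, a bZIP repressor, did not pass the test. The median of IRF2 was 51.0 FPKM in numbered and 122 FPKM in unnumbered splits, and that of BACH1 was 1.16 FPKM in numbered and 0.00792 FPKM in unnumbered splits. The AP-1 genes JUN, FOS, FOSB and FOSL2 never reached 1 FPKM in any split, nor did MAFF, MAFK, BACH2 and SPI1.

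PRDM1 (ENSG00000057657.10, chromosome 6, 106534195 to 106557814), the repressor that directs plasma cell fate, was listed at 0 in 8 of the 10 numbered splits. It was at 15.44 FPKM in numbered split 7, at 0.01 FPKM in split 8 and at 0 in the others. In the unnumbered splits it was at 35.89 (232), 15.65 (233), 31.67 (246), 1.75 (247), 24.12 (248), 90.66 (249), 41.9 (250), 26.99 (251), 53.3 (252) and 0 FPKM (253). Numbered split 7 was the exception in its set and unnumbered split 253 the exception in the other, so the sets overlapped, while 8 unnumbered splits lay above every numbered split. PRDM1 was lower in the numbered splits by limma (difference -3.89, SE 0.84, 95% interval -5.62 to -2.15, adjusted p = 0.00394). By the exact rank-sum permutation test its adjusted p was 0.0068. By the same 95% limit a true count of 0 would allow up to 0.0495 FPKM in the numbered splits. The 1.75 FPKM of split 247 rests on about 1 fragment.

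BATF and PRDM1 were both at 1 FPKM or more in 2 splits, numbered 7 and unnumbered 252. These were the only numbered split with PRDM1 at that level and the only unnumbered split with BATF at that level. The other gene reached that level in 9 of the 10 splits of each set, so this overlap cannot show whether the 2 genes go together. BATF in split 252 was at 1.59 FPKM, near the cutoff. Fisher's exact test of the number of splits at 1 FPKM or more gave p = 0.00109 for BATF and for PRDM1, and an adjusted p of 0.191 for each. No member passed that test after adjustment, against 0.0666% of all genes tested. At an unadjusted p below 0.05 there were 2 members, against 4.34% of all genes. BATF was the one found in more numbered splits, against 3.66% of all genes, and PRDM1 the one found in more unnumbered splits, against 0.685%. By the exact rank-sum permutation test 4 members were called (IRF4, BATF, PRDM1 and MYC), against 9.07% of all genes tested. No member had sets that did not overlap, against 2.0% of all genes tested.

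**Figure D3:**
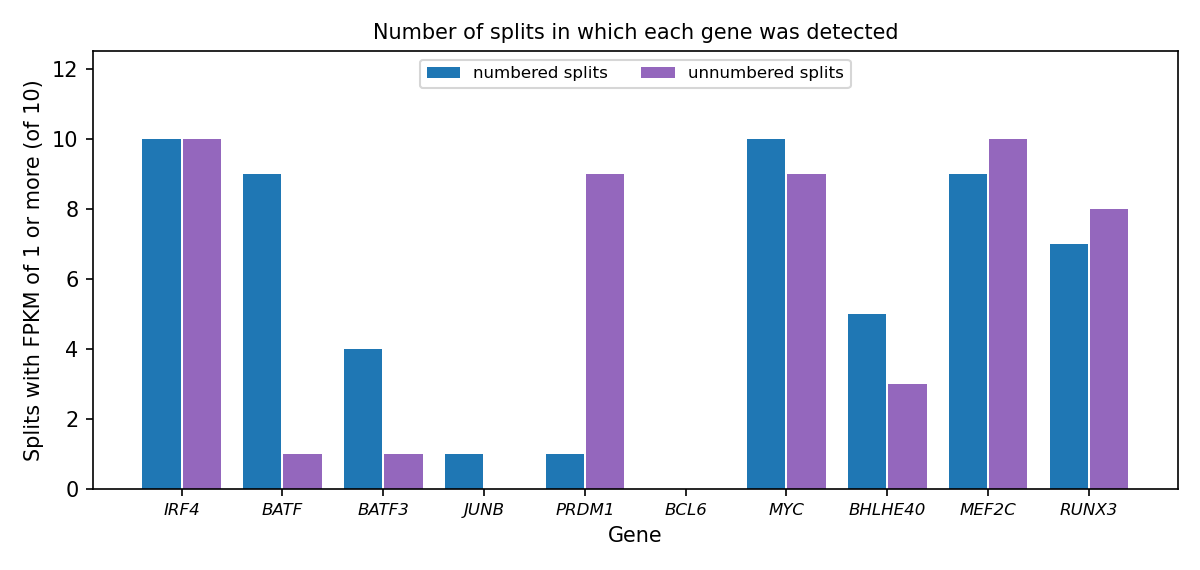
Number of the 10 splits in each set with 1 FPKM or more of each gene, numbered bars left of unnumbered bars. BATF reached that level in 9 numbered splits and 1 unnumbered split, PRDM1 in 1 numbered split and 9 unnumbered splits, and BCL6 in none.

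BCL6 (ENSG00000113916.13, chromosome 3, 187439165 to 187463515), the germinal centre repressor, was listed at 0 in all 20 libraries. A true count of 0 would allow up to 0.0716 FPKM in the numbered splits and up to 0.108 FPKM in the unnumbered splits other than 247. In split 247 the limit is 6.59 FPKM. Whether these zeros are true counts of 0 or failed estimates is not known from the files, and BCL6 was not tested.

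Genes of the plasma cell and germinal centre programmes were read beside PRDM1 and BCL6. Of 15 plasma cell genes 14 had data and were tested, of which 1 was higher and 1 lower in the numbered splits, against 3.93% higher and 1.38% lower of all genes tested, with a median difference of -0.74. The lower one was IGJ, the joining chain of secreted antibody, with a median of 0.0975 FPKM (up to 209) in numbered and 459 FPKM (190 to 828) in unnumbered splits (difference -6.33, SE 1.0, limma adjusted p = 0.000103). The higher one was CD38, a surface ectoenzyme, with a median of 32.2 FPKM (0 to 171) in numbered and 0.000812 FPKM (0 to 0.0915) in unnumbered splits (difference 4.08, SE 0.96, limma adjusted p = 0.00882). CD38 reached the mean needed for testing through the numbered splits alone (mean 53.8 FPKM, and 0.0157 FPKM in the unnumbered splits). Its call is therefore no support for this list as a group. Without run a 4 were called, CD38 higher and IGJ, TNFRSF17 and PDIA4 lower. TNFRSF17 was near the threshold with all 20 libraries (limma adjusted p = 0.0526). It was also called lower by limma with pseudocount 10, with a mean of 5 FPKM or more and with run a as a covariate. The same held with size factors, TPM and the length trend removed. By the exact rank-sum permutation test TNFRSF17 (adjusted p = 0.0434) and PDIA4 (adjusted p = 0.0282) passed too. SSR4, a translocon protein and the most abundant on the list with IGJ, did not pass the test, with medians of 541 FPKM in numbered and 504 FPKM in unnumbered splits.

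In the other 2 related lists no gene was called at the pseudocount of 1 with all 20 libraries. Of 8 genes known to be repressed by PRDM1, 7 were tested and none passed, with a median difference of 0.52. The most abundant were ID3, an inhibitor of helix-loop-helix factors, with medians of 56.0 FPKM in numbered and 54.8 FPKM in unnumbered splits, and EBF1, a B lineage factor, with medians of 2.0 FPKM in numbered and 0.349 FPKM in unnumbered splits. Of 15 germinal centre genes, 6 were tested and none passed, with a median difference of 0.88. GCET2, a germinal centre signalling adaptor, had medians of 261 FPKM in numbered and 91.1 FPKM in unnumbered splits (limma adjusted p = 0.117), and CD40, a costimulatory receptor, had 142 FPKM in numbered and 10.1 FPKM in unnumbered splits (limma adjusted p = 0.164). SPIB, on the list of genes repressed by PRDM1, was called by limma with a pseudocount of 0.1 and by the exact rank-sum permutation test. The count on that list was also 1 without numbered split 1 and without unnumbered split 250.

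MYC (ENSG00000136997.10, chromosome 8, 128747680 to 128753674), the growth regulator, was present in all numbered splits. It was at 40.92, 68.15, 51.21, 34.44, 33.83, 12.11, 70.33, 22.11, 113.43 and 111.43 FPKM in numbered splits 1 to 10. In the unnumbered splits it was at 32.5 (232), 33.71 (233), 10.08 (246), 8.08 (247), 2.87 (248), 0 (249), 1.08 (250), 5.5 (251), 10.18 (252) and 28.34 FPKM (253). The 8.08 FPKM of split 247 rests on about 2.4 fragments. Of the numbered splits 8 lay above every unnumbered split, and numbered splits 6 and 8 lay within the unnumbered range. MYC did not pass the limma threshold (difference 2.46, SE 0.75, 95% interval 0.91 to 4.02, adjusted p = 0.0564) but passed by the exact rank-sum permutation test (adjusted p = 0.00711). The call of MYC therefore depended on the test. Both run c splits held the highest unnumbered values, and the median of run d was 6.79 FPKM.

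Of 15 genes of the MYC network, 10 were tested and none passed, with a median difference of 0.02. MYCBP, a MYC-binding protein, had medians of 197 FPKM in numbered and 90.6 FPKM in unnumbered splits, and MYCBP2, an E3 ligase, 9.23 FPKM in numbered and 109 FPKM in unnumbered splits. All 25 genes of a list of MYC targets were tested, and 4 were lower and none higher in the numbered splits, against 1.38% lower and 3.93% higher of all genes tested, with a median difference of -0.45. NPM1, a nucleolar chaperone, had medians of 6541 FPKM in numbered and 10943 FPKM in unnumbered splits (difference -0.69, SE 0.11, limma adjusted p = 0.000175). HSPE1, a mitochondrial co-chaperonin, had medians of 601 FPKM in numbered and 1575 FPKM in unnumbered splits (difference -1.56, SE 0.24, limma adjusted p = 7.0e-05). ODC1, an enzyme of polyamine synthesis, had medians of 14.2 FPKM in numbered and 140 FPKM in unnumbered splits (difference -3.22, limma adjusted p = 0.0111). DKC1, a pseudouridine synthase, had medians of 28.8 FPKM in numbered and 294 FPKM in unnumbered splits (difference -3.83, limma adjusted p = 0.0129). The target genes that passed were thus lower in the numbered set, where MYC had the higher values but did not pass the limma threshold. Other targets, such as FBL and SRM, were higher there without passing. The relation of these targets to MYC was not tested. With size factors 7 of the 25 were called, all lower in the numbered splits. The call of ODC1 was lost without run a, and that of DKC1 without numbered split 9 and unnumbered splits 247 and 253, where 1 target was higher and 4 were lower.

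RUNX3 (ENSG00000020633.14, chromosome 1, 25226002 to 25291612), a Runt factor of lymphocyte proliferation, did not pass the test. It was at 5.95, 5.06, 0, 26.11, 24.46, 0.44, 9.29, 5.53, 17.99 and 0.13 FPKM in numbered splits 1 to 10. In the unnumbered splits it was at 2.36 (232), 4.25 (233), 72.77 (246), 1.91 (247), 22.11 (248), 37.59 (249), 4.39 (250), 0.47 (251), 0.21 (252) and 1.6 FPKM (253). The 1.91 FPKM of split 247 rests on about 1 fragment. The sets overlapped in part: unnumbered splits 246 and 249 lay above every numbered split, and numbered splits 3 and 10 lay below every unnumbered split. The difference was -0.05 (SE 0.91, 95% interval -1.93 to 1.83, limma adjusted p = 0.98).

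MEF2C (ENSG00000081189.9, chromosome 5, 88013975 to 88199922), a MADS-box factor of B cell proliferation, was among the highest members in both sets. It was at 74.43, 149.22, 27.76, 79.81, 41.37, 12.32, 120.8, 79.78, 426.35 and 0.47 FPKM in numbered splits 1 to 10. In the unnumbered splits it was at 164.64 (232), 238.42 (233), 142.91 (246), 41.26 (247), 145.28 (248), 60.66 (249), 86.63 (250), 186.34 (251), 86.04 (252) and 113.63 FPKM (253). The deposited 95% interval of the value in split 247 was 0 to 111 FPKM. Numbered split 9 was the highest and split 10 the lowest of all 20. The mean was 101 ± 123 FPKM in the numbered and 127 ± 60.7 FPKM in the unnumbered splits (SD, n = 10 each). MEF2C did not pass the test (difference -1.19, SE 0.76, 95% interval -2.75 to 0.37, limma adjusted p = 0.46).

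BHLHE40 (ENSG00000134107.4, chromosome 3, 5020801 to 5027008), a helix-loop-helix repressor induced on activation, was uneven in both sets. It was at 59.95, 45.03, 13.18 and 9.32 FPKM in numbered splits 2, 7, 9 and 1, and from 0 to 1.75 FPKM in the other 6. It was at 26.41, 6.3 and 1.73 FPKM in unnumbered splits 247, 252 and 233, and from 0 to 0.04 FPKM in the other 7. The 26.41 FPKM of split 247 rests on about 12 fragments. BHLHE40 did not pass the test (difference 1.29, SE 0.90, limma adjusted p = 0.498). Of 11 RUNX, MEF2 and BHLHE relatives 4 were tested and none passed, with a median difference of -0.77. CBFB, the partner of RUNX factors, had medians of 0.990 FPKM in numbered and 12.4 FPKM in unnumbered splits, and MEF2A 0.916 FPKM in numbered and 0.420 FPKM in unnumbered splits.

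**Figure D4:**
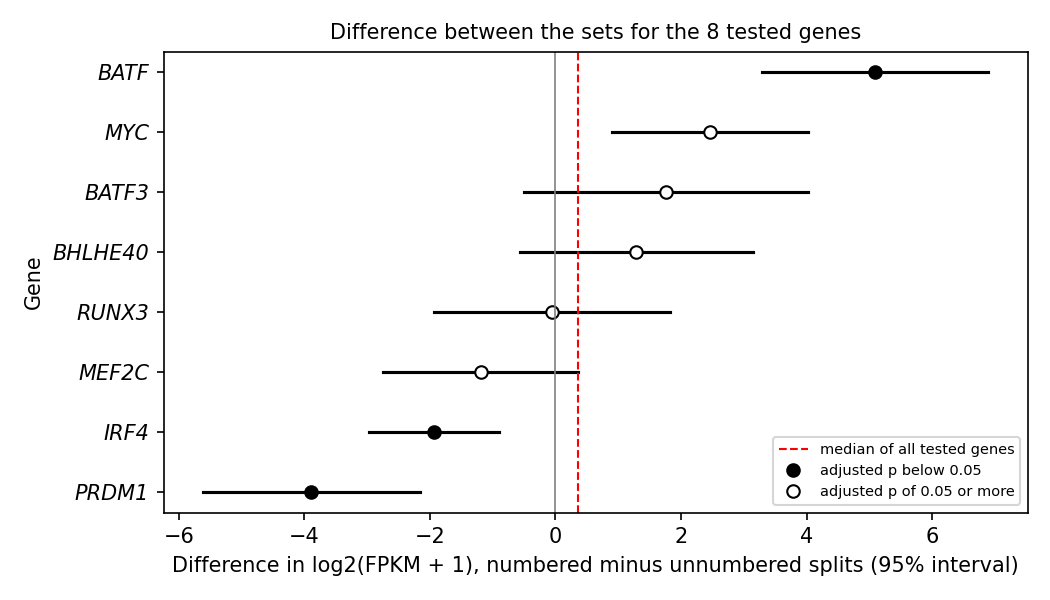
Difference in log2(FPKM + 1), numbered minus unnumbered, with its 95% interval (limma) for the 8 tested members, beside a dashed line at the median of all genes tested (0.35). Filled points passed the adjusted threshold (BATF, IRF4 and PRDM1), and the interval of MYC also lies on 1 side of 0.

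Across single splits, 3 to 8 of the 10 genes reached 1 FPKM in the numbered set (median 6) and 4 to 7 in the unnumbered set (median 5). The highest member was BATF in 4 numbered splits, MEF2C in 3, and BATF3, IRF4 and MYC in 1 each, whereas it was IRF4 in 8 unnumbered splits and MEF2C in 2. By median FPKM the order in the numbered set was MEF2C (77.1), BATF (69.6), IRF4 (50.4) and MYC (46.1), and the ranges of these genes overlapped. In the unnumbered set it was IRF4 (202), MEF2C (128), PRDM1 (29.3) and MYC (9.08), and neighbouring genes overlapped there too. Numbered split 7 held the most members and also the most genes at 1 FPKM or more (7671), and numbered split 10 held the fewest members.

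The genes whose levels moved most like a member from split to split were sought among 5804 genes with a mean of 10 FPKM or more, after centring log2(FPKM + 1) within each set, for the 4 members at 1 FPKM or more in at least 15 libraries. The libraries share depth and capture, so the Pearson r over 20 libraries is a description only. For IRF4 the nearest were THEM4 (r = 0.738), PELI1 (0.690) and CBWD2 (0.682), of which THEM4 and PELI1 reached 1 FPKM in only 6 and 7 libraries. For MYC they were WNK1 (0.714), MTPN (0.687) and U2AF1 (0.673). For RUNX3 they were CCDC69 (0.728), FAM76A (0.707) and LRRC28 (0.690), all at 1 FPKM in fewer than 10 libraries. For MEF2C they were NOP58 (0.829), TRA2A (0.827) and LSM6 (0.741), each at 1 FPKM in 19 or 20 libraries.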

How the data were processed

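The authors deposited FPKM per gene for each library, beside confidence bounds. The submitters' processing notes name TopHat 1.4.1 and Cufflinks 2.0.2, and the sources used here give no build for these tables. Of 55040 rows, 5797 with low data status in every library and 128 that failed in any library were left out. Depth was estimated from the deposited confidence bounds of FPKM with the transcript lengths of GENCODE 29, since the files give no counts. The largest residual of that fit was 0.352%.

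Groups came from the titles, 10 libraries in each set. No 2 libraries held identical values. The 10506 genes with a mean of 1 FPKM or more were compared, numbered minus unnumbered, on log2(FPKM + 1) of the deposited values with limma 3.58.1 (trended variance, 2-sided, R 4.3.3) and Benjamini-Hochberg adjustment at 0.05. Exact rank-sum permutation tests and Fisher's exact test of detection (1 FPKM) used scipy 1.17.1 in Python 3.11.15. The steps were tested on simulated data. Alternatives were other pseudocounts (0.1 and 10), filters, size factors, TPM, removal of a length trend, and leaving out runs or splits.

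The level of 1 marker gene is not reported here. The members and gene lists were chosen with earlier results of these data known. Named genes were the members, the 2 most abundant tested genes of each list and up to 4 past the threshold, and the 3 nearest patterns. The 16 genes that every cell uses were chosen after seeing the data.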

Additional observations from a re-analysis of the deposited data

Results flagged for a closer look

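In each set of 10 splits, the highest and lowest values of log2(FPKM + 1) were set against Dixon's 95% critical value. Of 17 groups tested, 3 held a split far from the others. For normally distributed values chance gives about 1 group in 20. These 3 groups hold many zeros, so that rate does not apply to them and the flags only point at splits. BATF3 was at 63.0 FPKM in unnumbered split 252, where 8 of the other unnumbered splits were at 0. PRDM1 was at 15.4 FPKM in numbered split 7, where 8 of the other numbered splits were at 0. JUNB was at 3.95 FPKM in numbered split 7, the only split of either set in which it reached 1 FPKM. Numbered split 7 also held the most genes at 1 FPKM or more of all 20 libraries (7671), and its part in these values was not tested. Without numbered split 7 the PRDM1 difference was -4.29, adjusted p = 0.000573 (limma).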

How the results depend on the processing

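IRF4, BATF and PRDM1 kept their direction and their call under all 12 alternatives (limma adjusted p 0.00531 to 0.0284 for IRF4) and without each split in turn, a choice made after seeing the data (differences -2.15 to -1.70 for IRF4, 4.82 to 5.61 for BATF and -4.36 to -3.64 for PRDM1). Of these alternatives the pseudocount moved the size of both most: the BATF difference was 7.47 with pseudocount 0.1 and 2.64 with 10, and that of PRDM1 was -6.44 with 0.1 and -1.65 with 10. MYC changed its side of the threshold. The members called higher in the numbered splits were 2, BATF and MYC, in place of 1, with pseudocount 10, no filter on low values, a mean of 5 FPKM or more, without run a, without splits 9, 247 and 253, and by the exact rank-sum test, and 1 to 2 without single splits (MYC was called without numbered 5, 6 or 8 or unnumbered 232, 233 or 253; adjusted p 0.0229 to 0.0760). The members called lower were always 2. The RUNX3 difference lay between -0.31 and 0.35 without single splits and turned positive without numbered 3 (0.24), 6 (0.18) or 10 (0.22) or unnumbered 246 (0.35), 248 (0.16) or 249 (0.24). The cause was not tested. Over all genes, 953 passed by the exact rank-sum test against 558 with limma. Of these 558, 413 were higher and 145 lower in the numbered splits, against 330 and 227 with size factors, 345 and 217 with TPM, and 233 and 232 after removal of the length trend. The median difference of all genes moved from 0.35 to 0.24, 0.24 and 0.01 under these scalings. Summing all rows of a symbol changed nothing, since each member has 1 row. No paired analysis was possible because the sets share no replicate numbers. At 0.128 M fragments, depth limits the zeros and low levels of split 247 most.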
